A study of Equus asinus with 6 samples.

Results

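A set of 40 cell cycle and DNA replication genes was followed in the longissimus dorsi (back muscle) of Guangling donkeys, Equus asinus. The set was taken by gene name from 20873 genes of the deposited count table, and all 40 were listed there. The donkeys were 24 months old. Per the sample titles, high intramuscular fat (IMF) muscle gave 3 libraries and low IMF muscle 3 libraries; IMF is the fat lying between and within muscle fibres. The groups differ by no other label, and measured fat contents, animal sex and batches are not stated. Whether each library is a separate animal is not labelled, and a p-value then measures the spread between these libraries.

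The genes of the set drive and mark cell division. In the first gap phase, D cyclins with CDK4 or CDK6 and E cyclins with CDK2 phosphorylate the retinoblastoma family of proteins, which hold E2F transcription factors in check, while CDK inhibitors oppose these kinases. Licensing factors then load the MCM helicase on DNA, the clamp PCNA and a supply of deoxynucleotides serve replication, and cyclins A and B with CDK1, the Aurora and Polo kinases and the spindle checkpoint carry the cell through mitosis. Nuclei of adult muscle fibres no longer divide, so dividing cells in muscle are mononucleated cells such as activated satellite cells (the muscle stem cells), immune cells, endothelial cells and fibroblasts. Bulk RNA cannot tell fewer cells of a type from less RNA per cell.

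Assigned reads numbered 39052998 to 47494157 a library. Levels are given as CPM, reads scaled to a common library size, and a library with 0 reads of a gene allows up to 3 reads, which is 0.0563 to 0.0869 CPM on the same scale. The 8 muscle fibre markers were high in every library, with summed levels of 91526, 100005 and 153806 CPM in high IMF libraries and 118256, 165753 and 160111 CPM in low IMF libraries, and 3 listed red cell markers were at or near 0. Some libraries stood apart. Low IMF replicates 2 and 3 were nearly alike, with a chi-square of 7.70 per gene against 297 to 313 between either of them and low IMF replicate 1 and 193 to 560 between high IMF libraries, where sampling noise alone gives 1. Among the muscle fibre markers, TNNT3 and MYLPF of fast fibres, a pair picked after the values were seen, were lowest in high IMF replicate 1 (summed level 3163, 12296 and 20022 CPM in high IMF libraries and 15032, 18829 and 18118 CPM in low IMF libraries). Low IMF replicate 1 had the lowest sum of 10 immediate early genes, which respond to handling and collection (2965, 1396 and 2302 CPM in high IMF libraries, 246, 1572 and 1386 CPM in low IMF libraries).

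High was compared with low IMF muscle to ask whether transcripts of the set differ between them. Of the 40 genes, 34 passed the filter on low counts, and edgeR's quasi-likelihood test called 0 of these at an adjusted p under 0.05 (Benjamini-Hochberg over 15933 genes), against 0% of all genes tested. At an unadjusted p under 0.05 edgeR had 1 gene of the 34, the CDK inhibitor CDKN1B, lower in high IMF muscle, against 7.27% of all genes tested. The groups did not overlap for 6 of the 34 genes (17.6%), against 13% of all genes tested. All high IMF libraries lay above for CDK1, RRM2, CCND3 and CDKN1A (6.86% of all genes tested), and all low IMF libraries above for CDKN1B and PCNA (6.1% of all genes tested). With library size only, 5 of the 34 (14.7%) did not overlap, against 13.1% of all genes tested: CCND3 and PCNA then overlapped, and RRM1 did not. The DESeq2 Wald test also called 0 of the set, against 1.16% of 16775 genes, and had CCND1 and CDKN1B at an unadjusted p under 0.05. The authors' deposited table, whose log2 folds for the set differed from that DESeq2 run by at most 0.000481, gave none of the 40 an adjusted p under 0.05. That table and the DESeq2 run gave 3 of the 40, CCNB2, BUB1 and FOXM1, no adjusted p. Over the 34 genes the median log2 fold of high over low was 0.05, with 20 positive and 14 negative, beside 0.01 over all genes tested. With library size only in place of TMM scaling the median of all genes was 0.15 and that of the 34 genes 0.22.

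**Figure D1:**
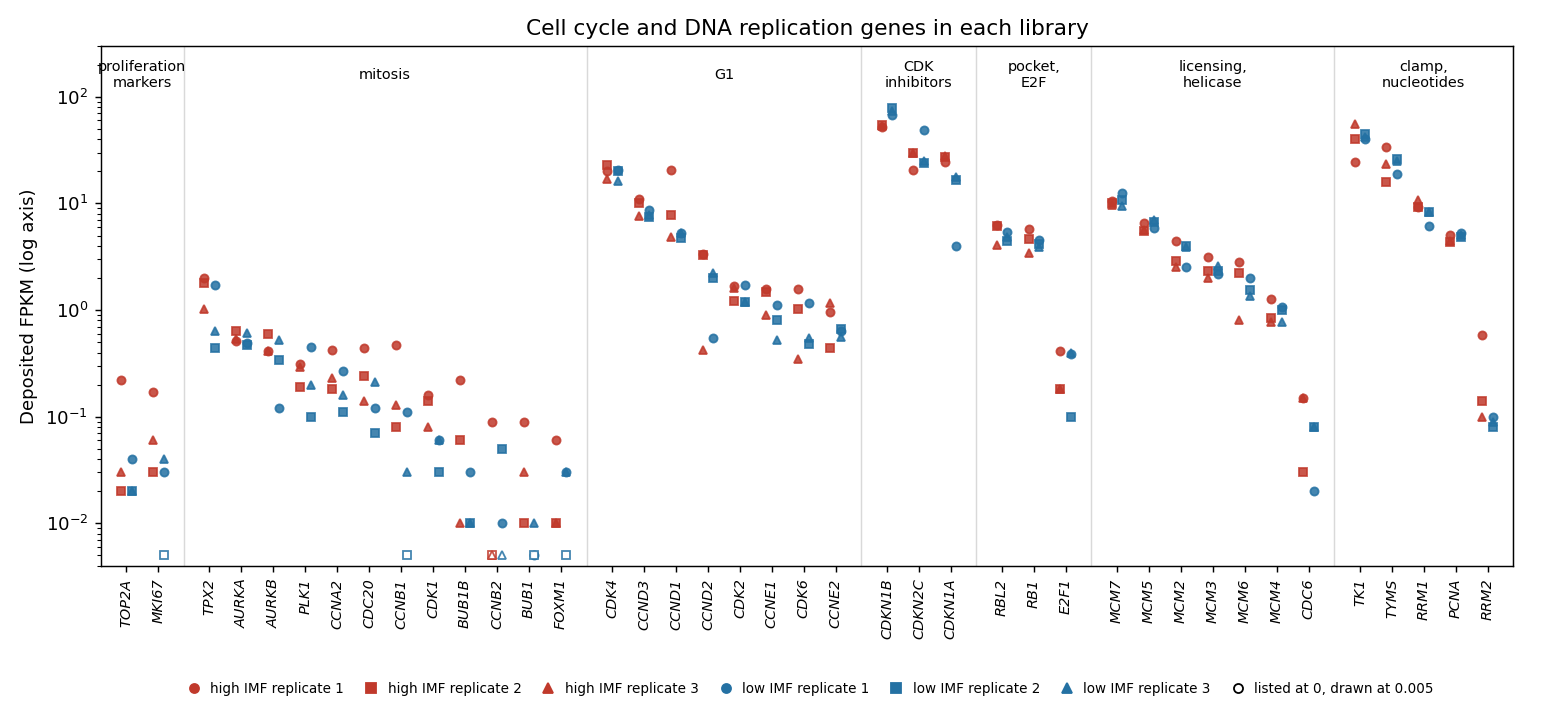
Deposited FPKM (reads per gene length and library size, log axis) of the 40 genes in each of the 6 libraries, grouped by role. Genes of mitosis sit near the bottom, at means of 0.0233 to 1.27 FPKM, and CDKN1B, at 63.2 FPKM, is at the top; the nucleotide supply genes run from RRM2 at 0.182 FPKM to TK1 at 41.3 FPKM.

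Levels per length, from the deposited FPKM values, set the classes far apart. The 14 proliferation markers and mitotic genes had means of 0.0233 to 1.27 FPKM over the 6 libraries, with a median of 0.112 FPKM. The other 26 genes had means of 0.0850 to 63.2 FPKM, with a median of 4.63 FPKM. The 6 genes of highest level were CDK inhibitors, nucleotide supply genes and a kinase of the first gap phase: CDKN1B (63.2 FPKM), TK1 (41.3 FPKM), CDKN2C (29.7 FPKM), TYMS (24.0 FPKM), CDKN1A (19.7 FPKM) and CDK4 (19.6 FPKM). FPKM rests on gene lengths that the authors chose, and no coordinates are given here because the build behind the counts is unclear.

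The proliferation markers were nearly silent. MKI67, the gene of the Ki-67 antigen of dividing cells, had 65, 16 and 22 reads in the high IMF libraries, against 12, 0 and 16 reads in the low IMF libraries. This gives 1.44, 0.300 and 0.637 CPM in high and 0.250, 0 and 0.389 CPM in low IMF muscle. The 0 reads of low IMF replicate 2 allow up to 3 reads, or 0.0727 CPM. The highest library was high IMF replicate 1, and the groups overlapped. The log2 fold was 1.87 (SE 1.09, edgeR adjusted p = 0.814), and 1.09 without high IMF replicate 1. TOP2A, which untangles DNA strands, had 50, 6 and 7 reads in high IMF libraries and 10, 4 and 4 reads in low IMF libraries. It did not pass the filter on low counts.

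Mitotic cyclins, kinases and checkpoint genes were low in both groups. CCNB1 and CCNB2 (the mitotic B cyclins), BUB1 and BUB1B (the spindle checkpoint) and FOXM1 (a transcription factor for mitotic genes) did not pass the filter on low counts; these 5 and TOP2A had 17 to 81 reads each over all 6 libraries. CDK1, the kinase that starts mitosis, measured 0.486, 0.450 and 0.348 CPM in high IMF libraries and 0.208, 0.121 and 0.243 CPM in low IMF libraries. Its groups did not overlap, at 5 to 24 reads a library. The log2 fold was 1.16 (SE 0.533, edgeR adjusted p = 0.719). Of the others, CCNA2 (the cyclin of S phase and G2), CDC20 (which activates the anaphase complex), AURKB and PLK1 (mitotic kinases) averaged 0.203 to 0.400 FPKM, with log2 folds of 0.01 to 0.86.

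TPX2, which recruits and activates AURKA on the spindle, had the highest level per length of this class (1.27 FPKM). It measured 5.57, 5.18 and 3.77 CPM in high IMF muscle and 5.42, 1.58 and 2.21 CPM in low IMF muscle. Low IMF replicate 1 lay among the high IMF libraries and low IMF replicates 2 and 3 lay below them. The log2 fold of 0.65 (SE 0.474, edgeR adjusted p = 0.867) was 1.34 without low IMF replicate 1. There the low IMF arm held only the nearly alike replicates 2 and 3, and edgeR gave an adjusted p of 0.339 and DESeq2 of 0.0185. With low IMF replicates 2 and 3 summed into 1 library the log2 fold was 0.41. AURKA measured 3.42, 4.39 and 4.78 CPM in high and 3.71, 4.03 and 5.11 CPM in low IMF libraries, with a log2 fold of -0.03 (0.10 with library size only). In the RefSeq table of the donkey assembly EquAss-T2T_v2, AURKA overlaps CSTF1, which measured 10.5 to 17.2 CPM, above AURKA in every library. PLK1 overlaps ERN2, which measured 0 to 0.188 CPM. TPX2, CCNB1, AURKB and CDC6 overlap long noncoding RNA genes in the RefSeq table, whose levels were not read. Whether the authors counted by strand is not stated, so reads of overlapping genes cannot be told apart.

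**Figure D2:**
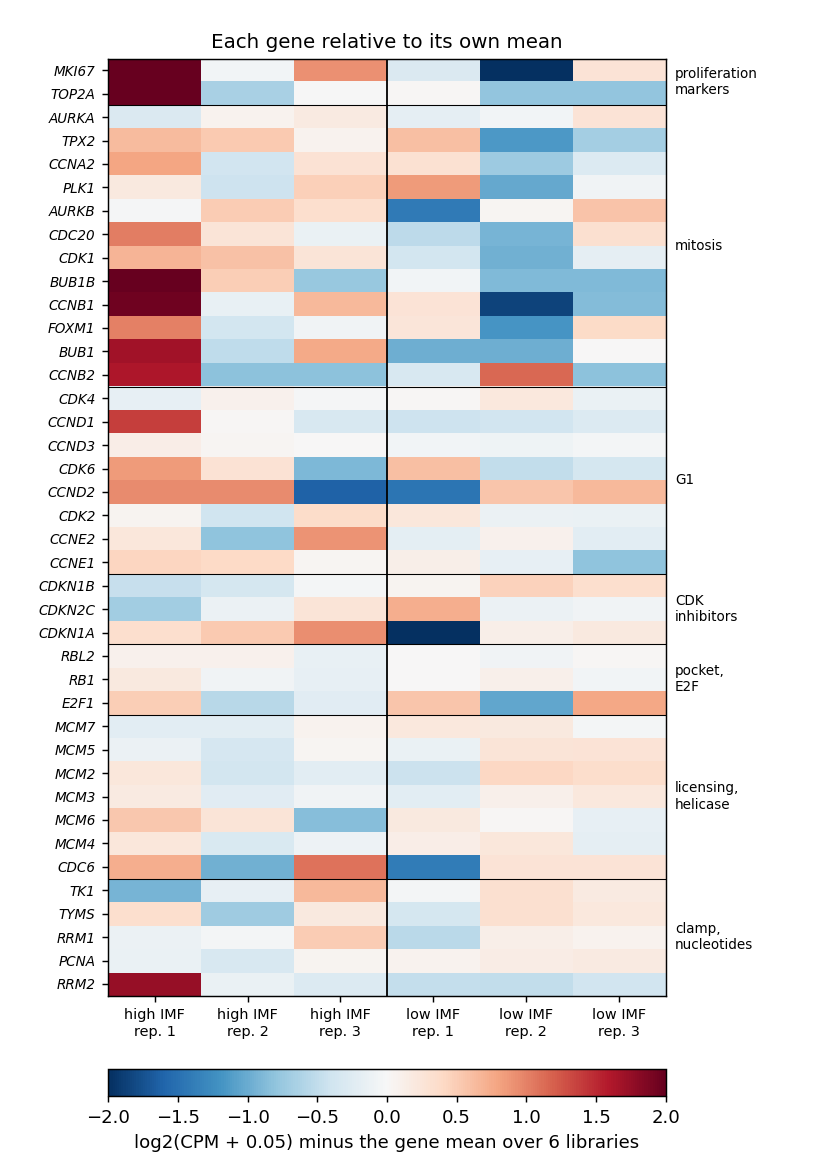
Each of the 40 genes (rows, by role) in the 6 libraries (columns, high IMF at left), as log2(CPM + 0.05) after subtracting the mean of that gene. High IMF replicate 1 is the highest library for 21 of the 40 genes, 11 of them among the 14 proliferation markers and mitotic genes.

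The mitotic genes were highest mainly in high IMF replicate 1. It was the top library for 11 of the 14 proliferation markers and mitotic genes, the exceptions being AURKA and AURKB (highest in low IMF replicate 3) and PLK1 (highest in low IMF replicate 1). With library size only in place of TMM scaling the count was also 11 of 14. It was the highest library for 21.9% of all 20873 genes. All 14 genes summed to 18.3, 13.4 and 13.6 CPM in high IMF libraries, against 13.3, 7.71 and 11.1 CPM in low IMF libraries, with high IMF replicate 1 highest and high IMF replicates 2 and 3 close to low IMF replicate 1. The 11 genes of this class other than AURKA, TPX2 and CCNA2, a subset taken after the values were seen, summed to 6.92, 2.76 and 3.39 CPM in high IMF libraries, against 2.52, 1.31 and 2.67 CPM in low IMF libraries. In that subset high IMF replicates 2 and 3 lay close to the upper low IMF libraries.

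Markers of some other cells, namely T and NK, myeloid, fibroblast and B cells, also had their highest sum in high IMF replicate 1. All 10 T and NK cell markers were highest there, and their sum measured 33.9, 18.6 and 16.0 CPM in high IMF libraries and 14.8, 5.07 and 4.596 CPM in low IMF libraries. The 10 macrophage and myeloid markers, 8 of them highest there, summed to 173, 111 and 44.0 CPM in high and 67.9, 70.9 and 64.5 CPM in low IMF libraries. For the 9 fibroblast markers the sums were 1586, 1344 and 297 CPM in high and 339, 763 and 839 CPM in low IMF libraries. No marker of these 3 lists was at 0 in any library. The 6 listed satellite cell and myoblast markers (1 at 0 in high IMF replicate 3) ordered differently, with 116, 105 and 164 CPM in high and 97.2, 82.4 and 84.0 CPM in low IMF libraries. Sums of endothelial markers were 876, 742 and 463 CPM in high and 1036, 911 and 919 CPM in low IMF libraries. Those of adipocyte markers were 329.8, 769 and 132 CPM in high and 251, 328 and 275 CPM in low IMF libraries. B and plasma cell markers summed to 19.2, 11.5 and 11.2 CPM in high and 12.2, 8.07 and 7.25 CPM in low IMF libraries. Of these 7 markers, 1 was highest in high IMF replicate 1 and 4 in low IMF replicate 1. The part of all these cell types in the mitotic signal was not tested.

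**Figure D3:**
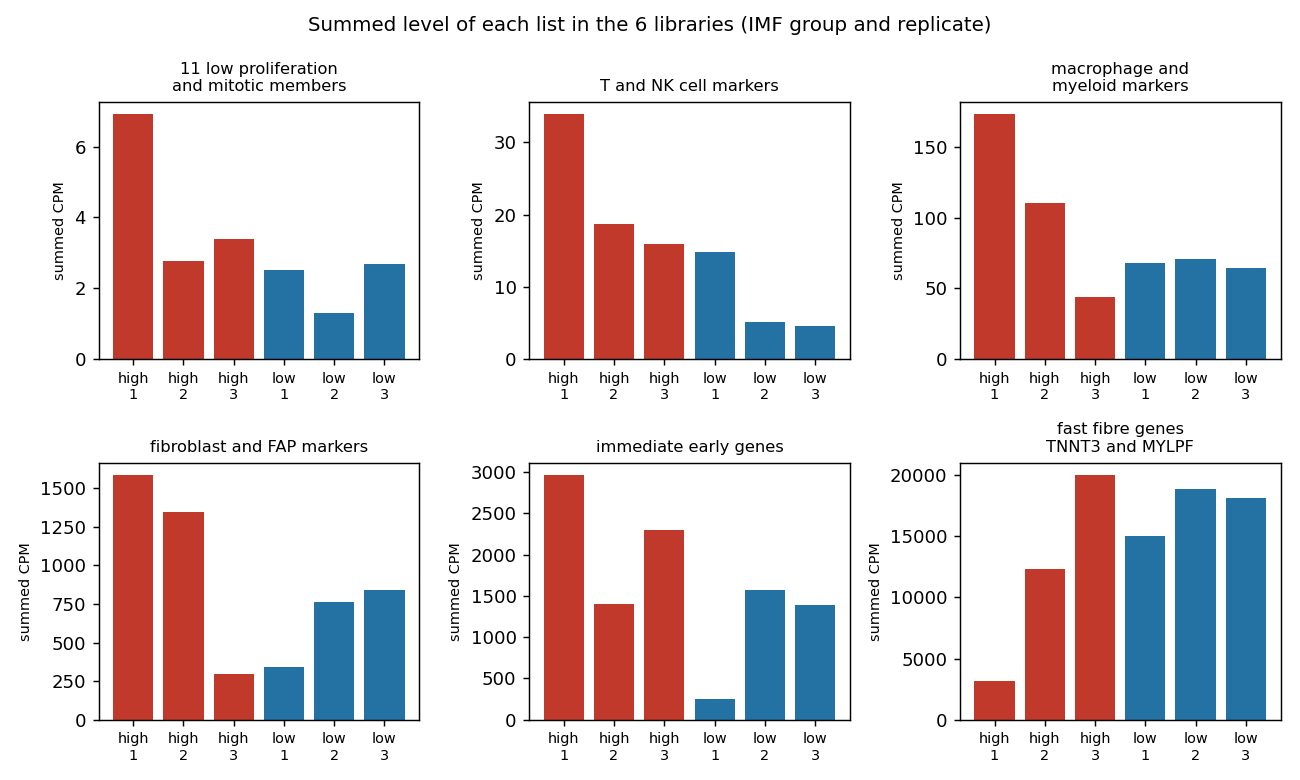
Summed CPM of gene lists in the 6 libraries, high IMF replicates at left and low IMF replicates at right of each panel. The 11 low mitotic genes, a subset taken after the values were seen, and the T and NK cell markers have their highest bar in high IMF replicate 1. TNNT3 with MYLPF, 2 of 8 fibre markers and also picked after the values were seen, have their lowest bar there. Endothelial, adipocyte and satellite cell markers are not drawn, and their sums were highest in other libraries.

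Cyclins and kinases of the first gap phase ranged from 0.735 FPKM for CCNE2 to 19.6 FPKM for CDK4. CCND1, which couples growth signals to CDK4 and CDK6, measured 65.9, 25.7 and 20.2 CPM in high IMF libraries and 18.9, 19.5 and 20.9 CPM in low IMF libraries. Far above the others stood high IMF replicate 1, and high IMF replicate 3 fell inside the span of the low IMF libraries. The log2 fold was 0.92 (SE 0.423, edgeR adjusted p = 0.727) and 0.20 without high IMF replicate 1. CCND1 is also expressed by stromal cells, whose marker sums are given above, and their part was not tested. CCND2 measured 7.64, 7.62 and 1.25 CPM in high and 1.40, 5.80 and 6.20 CPM in low IMF libraries, with 1 library of each group near 1 CPM and the rest above 5 CPM.

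CCND3, the D cyclin of differentiated muscle cells in mouse, measured 19.1, 18.0 and 17.5 CPM in high and 16.7, 16.4 and 16.9 CPM in low IMF muscle. The groups did not overlap but lay close, with a log2 fold of 0.12 (SE 0.142, 95% interval -0.21 to 0.46, edgeR adjusted p = 0.925). CCND3 overlaps BYSL, which measured 14.2 to 20.5 CPM, in the RefSeq table. With library size only in place of TMM scaling the groups of CCND3 overlapped. CDK4, the partner of the D cyclins and the highest of the class per length, measured 27.7, 32.7 and 30.4 CPM in high and 31.4, 35.7 and 28.0 CPM in low IMF libraries. Its log2 fold was -0.07 (95% interval -0.44 to 0.30), and 0.07 with library size only. CDK6, the other D cyclin kinase, measured 17.5, 11.8 and 5.13 CPM in high and 14.6, 6.84 and 7.56 CPM in low IMF libraries with wide overlap. CCNE1, CCNE2 and CDK2, which drive entry into S phase, averaged 1.06, 0.735 and 1.44 FPKM, with log2 folds of 0.55, 0.37 and 0.04 and overlapping groups. CCNE2, at 2.12, 1.01 and 3.42 CPM in high and 1.56, 1.92 and 1.56 CPM in low IMF libraries, overlaps INTS8, which measured 13.5 to 16.8 CPM.

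The CDK inhibitors held the gene of smallest p in the set. CDKN1B (p27), which blocks cyclin E and A kinases in resting cells, measured 52.6, 56.5 and 70.8 CPM in high IMF muscle and 74.8, 99.8 and 91.3 CPM in low IMF muscle. All high IMF libraries lay below all low IMF libraries, the nearest pair being high IMF replicate 3 and low IMF replicate 1. The means were 60.0 ± 9.55 CPM in high and 88.6 ± 12.7 CPM in low IMF muscle (SD, n = 3 each). The log2 fold was -0.56 (SE 0.187, 95% interval -1.0 to -0.13, edgeR adjusted p = 0.584). Leaving out each library in turn gave log2 folds of -0.70 to -0.47, and the unadjusted p of CDKN1B was above 0.05 when high IMF replicate 2 or either of low IMF replicates 2 and 3 was left out, and also when the nearly alike low IMF replicates 2 and 3 were summed into 1 library (log2 fold -0.51). DESeq2 gave an adjusted p of 0.311 with all libraries and of 0.0390 without high IMF replicate 3, a setting added after the data were seen.

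**Figure D4:**
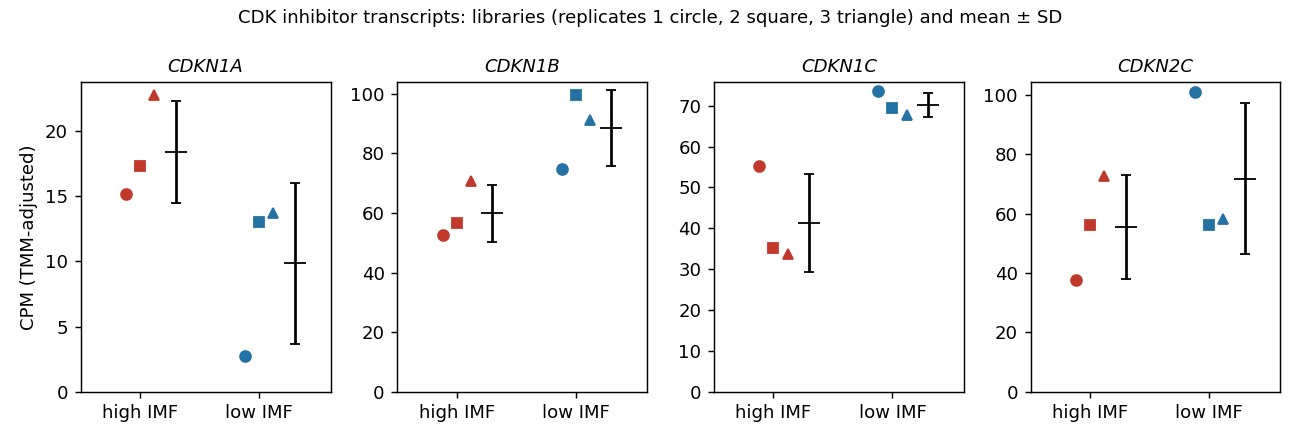
CPM of the CDK inhibitor genes in each library (points; circle, square and triangle for replicates 1, 2 and 3) with mean and SD bars, high IMF left of low IMF in each panel. CDKN1B is lower in all high IMF libraries (52.6 to 70.8 CPM) than in all low IMF libraries (74.8 to 99.8 CPM), and CDKN1A has 1 low IMF library far below the rest.

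CDKN1A (p21), an inhibitor induced by p53 and by muscle differentiation, measured 15.2, 17.3 and 22.7 CPM in high and 2.73, 13.04 and 13.7 CPM in low IMF libraries. The groups did not overlap, and low IMF replicate 1 stood far below the other low IMF libraries. The log2 fold was 0.90 (SE 0.542, edgeR adjusted p = 0.825), and 0.44 without low IMF replicate 1. That library was also the lowest in immediate early genes, as given above. CDKN1A is itself an early stress response gene, and the part of that response was not tested.

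CDKN2C (p18), an inhibitor of CDK4 and CDK6, measured 37.7, 56.3 and 72.6 CPM in high and 101, 56.4 and 58.1 CPM in low IMF libraries. Low IMF replicate 1 was highest and the groups overlapped, with a log2 fold of -0.37 (SE 0.318, edgeR adjusted p = 0.892) that was -0.06 without low IMF replicate 1. CDKN1C (p57), the third inhibitor of the CIP/KIP family and no gene of the set, measured 55.2, 35.3 and 33.6 CPM in high and 73.5, 69.3 and 67.7 CPM in low IMF muscle without overlap. Its log2 fold was -0.76 (SE 0.217, edgeR adjusted p = 0.523).

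Pocket proteins varied little between libraries. RBL2 (p130), a repressor of cell cycle genes in resting cells and the highest of its class per length (5.19 FPKM), measured 28.9, 28.7 and 24.6 CPM in high and 27.4, 25.9 and 27.7 CPM in low IMF muscle. Its coefficient of variation over the 6 libraries was 6.18%, and the log2 fold was 0.02 (95% interval -0.31 to 0.36). RB1, the retinoblastoma protein gene, measured 23.6, 19.6 and 18.5 CPM in high and 20.9, 22.1 and 19.8 CPM in low IMF libraries (log2 fold -0.03, 95% interval -0.40 to 0.35, and 0.13 with library size only). RB1 overlaps LPAR6, which measured 1.16 to 4.19 CPM, in the RefSeq table. E2F1, the activator that pocket proteins bind, was low, with 0.795, 0.356 and 0.463 CPM in high and 0.834, 0.242 and 0.973 CPM in low IMF libraries.

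**Figure D5:**
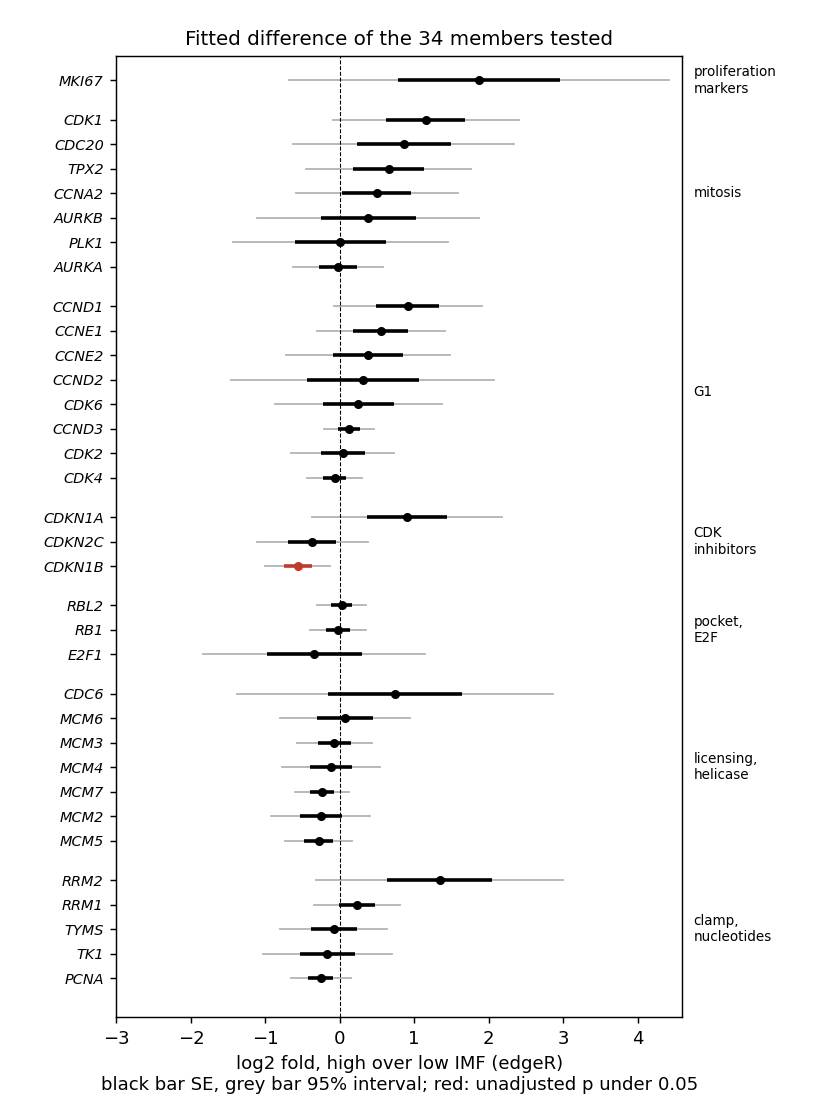
Fitted log2 fold of high over low IMF muscle with its SE (thick bar) and 95% interval (thin bar) from edgeR for the 34 tested genes, by role. The interval of CDKN1B lies below 0, and those of the other genes cross 0.

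The MCM helicase, which unwinds DNA at replication forks, was detected as all 6 subunits in every library. Of the 6, 5 had a negative log2 fold and MCM6 a positive one, and the median was -0.18, while with library size only MCM3 (0.09) and MCM4 (0.03) were positive too; no subunit had an unadjusted p under 0.05. Their summed level was 73.3, 61.8 and 70.0 CPM in high and 72.8, 85.1 and 79.0 CPM in low IMF libraries, so that high IMF replicates 1 and 3 lay near low IMF replicate 1. MCM7, the highest per length (10.5 FPKM), measured 25.6, 25.6 and 31.0 CPM in high and 34.2, 33.8 and 28.9 CPM in low IMF muscle (log2 fold -0.24, SE 0.157, edgeR adjusted p = 0.851). Per length the other subunits ran from 6.21 FPKM for MCM5 to 0.953 FPKM for MCM4, although the assembled helicase holds them in equal number. CDC6, which loads the helicase, had 16, 4 and 16 reads in high and 2, 10 and 10 reads in low IMF libraries, an average of 0.0850 FPKM.

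PCNA, the sliding clamp of DNA polymerases, measured 12.5, 10.99 and 14.3 CPM in high and 14.3, 15.2 and 15.5 CPM in low IMF muscle. The high IMF libraries lay below the low IMF libraries by a narrow margin, high IMF replicate 3 at 14.25 and low IMF replicate 1 at 14.32 CPM, and with library size only they overlapped. The log2 fold was -0.26 (SE 0.171, 95% interval -0.66 to 0.14, edgeR adjusted p = 0.851).

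Nucleotide supply genes included some of the most abundant and some of the rarest transcripts of the set. RRM2, the S phase subunit of ribonucleotide reductase, measured 1.44, 0.356 and 0.319 CPM in high and 0.271, 0.267 and 0.292 CPM in low IMF muscle. Again high IMF replicate 1 stood alone, and the log2 fold of 1.34 (SE 0.706, edgeR adjusted p = 0.764) was 0.28 without it. RRM1, the large subunit, which is present throughout the cycle, measured 24.7, 25.9 and 37.7 CPM in high and 18.3, 28.8 and 28.1 CPM in low IMF libraries with overlap (log2 fold 0.23); with library size only all high IMF libraries lay above. TYMS, which makes thymidylate, measured 45.1, 21.6 and 40.7 CPM in high and 27.9, 44.6 and 41.3 CPM in low IMF libraries, and its log2 fold was -0.08 (95% interval -0.81 to 0.64, and 0.07 with library size only).

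TK1, the cytosolic thymidine kinase known for its rise in S phase, was the second highest gene of the set per length. It measured 29.0, 49.4 and 87.0 CPM in high IMF libraries and 53.7, 69.1 and 62.8 CPM in low IMF libraries. The library highest for MKI67 and most mitotic genes, high IMF replicate 1, was the lowest for TK1, and high IMF replicate 3 was the highest. The summed level of the 8 muscle fibre markers given above was also lowest in high IMF replicate 1, but it was highest in low IMF replicate 2. Single markers differed: CKM measured 20884, 25249 and 54362 CPM in high and 33000.4, 62438 and 59291 CPM in low IMF libraries, and ACTA1 33034, 24636 and 29742 CPM in high and 30248, 39084 and 37644 CPM in low IMF libraries. The part of fibre content in the TK1 values was not tested. The log2 fold of -0.17 (SE 0.369, edgeR adjusted p = 0.963) was 0.12 without high IMF replicate 1. TK1 overlaps AFMID in the RefSeq table, and AFMID measured 2.04 to 4.37 CPM in the 6 libraries.

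Other genes of the same processes were read from lists beside the set. Of 38 replication machinery genes (polymerases, primase, origin and clamp loader subunits), 34 were tested, with a median log2 fold of -0.10. At an unadjusted p under 0.05 edgeR had 2 of these higher and 0 lower in high IMF muscle, against 4.53% higher and 2.74% lower over all genes tested, and 0 passed the adjustment. GINS1, a subunit of the replicative helicase complex, measured 7.87, 6.75 and 5.94 CPM in high and 3.42, 4.78 and 4.43 CPM in low IMF muscle, and CHAF1B, a histone chaperone of replicated DNA, measured 2.87, 1.78 and 1.42 CPM in high and 1.19, 1.02 and 0.778 CPM in low IMF muscle. LIG1, which joins replicated fragments, measured 9.21, 6.81 and 4.95 CPM in high and 13.4, 8.92 and 9.31 CPM in low IMF muscle, and the primase subunit PRIM1 measured 4.79, 4.88 and 5.94 CPM in high and 7.75, 6.64 and 6.44 CPM in low IMF muscle. Of the 38 genes, 4 (10.5%) were highest in high IMF replicate 1.

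The mitotic machinery list (kinesins, kinetochore, centromere and condensin genes) held 45 listed genes, 28 of them tested. At an unadjusted p under 0.05 edgeR had 4 higher (CKS2, NUSAP1, MYBL2 and CENPE) and 1 lower (KIF18B), against 4.53% higher and 2.74% lower over all genes tested, and 0 passed the adjustment. The median log2 fold was 0.45. Of the 45, 25 (55.6%) were highest in high IMF replicate 1. NUSAP1, which bundles spindle microtubules, measured 5.99, 1.31 and 1.27 CPM in high and 0.834, 0.921 and 0.657 CPM in low IMF muscle. Its log2 fold was 1.83 with all libraries and 0.67 when high IMF replicate 1 was left out. CENPE, a kinetochore kinesin, measured 9.74, 2.25 and 3.77 CPM in high and 2.23, 2.45 and 1.95 CPM in low IMF muscle. MYBL2, a transcription factor of mitotic genes, measured 0.950, 0.206 and 0.377 CPM in high and 0.0834, 0 and 0.146 CPM in low IMF muscle, with a log2 fold of 2.69 that was 1.85 without high IMF replicate 1. Its 0 reads in low IMF replicate 2 allow up to 3 reads, or 0.0727 CPM. MYBL2 passed the filter on low counts only through its high IMF libraries. Its place among the 4 higher genes was thus in part set by that filter. CKS2, a CDK-binding subunit, differed in pattern, with 1.72, 2.16 and 3.13 CPM in high and 0.334, 0.776 and 0.948 CPM in low IMF muscle and its highest value in high IMF replicate 3.

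KIF18B, a kinesin that shortens spindle microtubules, lay on the other side. It measured 1.75, 2.70 and 1.56 CPM in high and 42.9, 9.72 and 9.17 CPM in low IMF muscle, a log2 fold of -3.36 (SE 0.675, edgeR adjusted p = 0.504), the gene of smallest p in its list. The DESeq2 Wald test put it at an adjusted p of 7.66e-06. Its log2 fold was -2.24 when low IMF replicate 1 was left out. Low IMF replicate 1 was far above the rest, yet low IMF replicates 2 and 3 also lay above all high IMF libraries. All 45 listed genes summed to 73.0, 54.5 and 52.7 CPM in high IMF libraries and 90.4, 55.2 and 53.8 CPM in low IMF libraries. With KIF18B left out, a choice made after the values were seen, the order changed. The other 44 genes then summed to 71.3, 51.8 and 51.1 CPM in high IMF libraries and 47.5, 45.5 and 44.6 CPM in low IMF libraries.

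Of 33 cell cycle control genes, all tested, edgeR had 2 higher (BTG2 and E2F2) and 2 lower (CDKN1C and TFDP2) at an unadjusted p under 0.05, against 4.53% higher and 2.74% lower over all genes tested. None passed the adjustment, and the median log2 fold was -0.09. TFDP2, a dimerization partner of E2F proteins, measured 103, 97.3 and 83.4 CPM in high and 218, 141 and 143 CPM in low IMF muscle without overlap. BTG2, an antiproliferative gene that is also induced early by stress, measured 673, 125 and 287 CPM in high and 16.1, 84.0 and 83.6 CPM in low IMF muscle, with a log2 fold of 2.56 that was 1.73 without high IMF replicate 1. E2F2, an E2F activator, measured 0.486, 0.450 and 0.637 CPM in high and 0.125, 0.194 and 0.0486 CPM in low IMF muscle, in part at or below a count of 3 reads. It passed the filter on low counts only through its high IMF libraries, which in part set its place among the 2 higher genes.

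Targets and regulators of p53, which induces CDKN1A, gave 1 higher (SESN2) and 2 lower (SESN1 and BBC3) of 17 tested genes at an unadjusted p under 0.05 in edgeR, against 4.53% higher and 2.74% lower over all genes tested. None passed the adjustment in edgeR, and the median log2 fold was -0.09. SESN1, a stress-induced inhibitor of growth signalling, measured 108, 128 and 101 CPM in high and 272, 219 and 209 CPM in low IMF muscle. Its paralogue SESN2 measured 6.25, 7.75 and 6.66 CPM in high and 2.67, 2.55 and 2.97 CPM in low IMF muscle. The pair thus lay on opposite sides, each without overlap between the groups, and neither passed in edgeR (adjusted p = 0.431 for SESN1 and 0.374 for SESN2). Both passed in DESeq2, with adjusted p = 0.00065 for SESN1 and 0.000231 for SESN2. BBC3, a cell death gene, measured 2.85, 3.41 and 2.95 CPM in high and 3.17, 7.73 and 8.44 CPM in low IMF libraries, and the stress gene GADD45B measured 61.6, 29.8 and 58.2 CPM in high and 17.9, 33.5 and 36.6 CPM in low IMF libraries, both with overlap.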

How the data were processed

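Total RNA was extracted with Trizol and sequenced as 6 libraries, per the labels, which name 2 different sequencers. HISAT2 and the mouse build mm9 are named in the submitters' processing notes, although the deposited gene names are those of donkey; the genome behind the counts is therefore unclear, and the counter and its treatment of strand are not stated. The deposited counts are whole reads per gene, assigned by the authors, and were tested as deposited. The deposited FPKM values, scaled by the authors to gene length and library total, served only to compare levels between genes. The deposited ratio (fold), log2 fold and p-value columns are the authors' own comparison and enter only sentences that name that table. Rows without a symbol (726) held 0.473 to 0.846% of reads in a library and stayed in the fit.

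Counts were fitted with edgeR 4.0.16 in R 4.3.3 (TMM, filterByExpr defaults, quasi-likelihood F-test, two-sided, Benjamini-Hochberg over 15933 genes, threshold 0.05). Alternatives were limma-voom 3.58.1, DESeq2 1.42.0, edgeR without a filter, edgeR scaled by DESeq2's factors or by library size, a stricter filter (mean of 1 CPM, 10 reads in 3 libraries), a replicate block, low IMF replicates 2 and 3 summed, and each library left out. The code of the fit was checked on simulated counts of independent libraries, which do not mimic the nearly alike low IMF replicates 2 and 3. That check gives no measure of power for these data. CPM is relative to TMM-adjusted library sizes. Gene neighbours were read from RefSeq's annotation of the donkey assembly EquAss-T2T_v2. The genes of the set and the lists were chosen with earlier results of these data known. Values in every library are given for genes of the set at an unadjusted p under 0.05. They are also given for genes of the set of at least 1 CPM on average whose groups do not overlap. The gene of highest FPKM in each role class and up to 4 genes of smallest p in each other list are included too. CCND1, CCND2, CDK6, CCNE2, MKI67, CDK1, AURKA, RRM1, RRM2, RB1, E2F1, CDC6, CDKN2C, TYMS and CENPE were named after their values were seen. So were the fibre markers CKM and ACTA1. Limits given for 0 reads cover counting error only.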

Additional observations from a re-analysis of the deposited data

How the results depend on the processing

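Under every edgeR and limma-voom setting run, 0 genes of the set were called, also without each library in turn (0 to 0). DESeq2 called 0 with all libraries and, leaving out each in turn (added after seeing the data), 0 to 1: CDKN1B without high IMF replicate 3 and TPX2 without low IMF replicate 1. Over all genes, edgeR called 0 and DESeq2 194, and edgeR called 0 to 3 without each library. At an unadjusted p under 0.05 the set had 1 gene in the fit reported, 2 in DESeq2, 2 with the replicate block, 0 with low IMF replicates 2 and 3 summed and 0 to 4 without each library. The median log2 fold of 0.05 was 0.22 with library size only (all genes 0.15), 0.23 without the low-count filter and 0.23 in DESeq2. The last 2 values are over all 40 genes; over the 34 that passed the filter the DESeq2 median was 0.04. CDK4 turned to 0.0735 and TYMS to 0.0652 with library size only, and TYMS to 0.0105 with the summed libraries. Without each library the log2 fold was -0.155 to 0.0203 for CDK4, -0.0302 to 0.0904 for RBL2, -0.664 to 0.121 for TK1 and -0.303 to 0.161 for TYMS. BTG2, KIF18B, SESN1 and SESN2 passed in DESeq2 only. Whether replicate numbers pair the libraries is not labelled. Deviations from the group means correlated at 0.196, 0.149 and 0.0197 for same-numbered libraries, and at -0.216 to 0.206 for the other pairs. The replicate block called 0 genes of the set, but so did the fit without it, so these counts cannot decide on pairing. Genes of few reads, MKI67 and the other mitotic genes among them, are limited by depth.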
